A study of Mus musculus with 9 samples.

Results

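The genes of glucose uptake, glycolysis and the citric acid cycle were examined in 3T3-L1 cells after knockdown of Ebf1, an early B cell factor. These cells are a mouse line that grows as preadipocytes and can be turned into fat cells in the dish. The 39 genes were listed by function and matched by symbol in the platform's table of probes and genes, using only probe sets that name 1 gene. Of the 39, 37 had such a probe set, and Gpi1 and Eno1 were not analysed here. Where a gene had several, the one with the highest average signal stands for it. A further 2 genes, Slc2a3 and Aldoc, lay below the filter on low signal, a mean of 5.72 on the log2 scale, which leaves 35 members among 12735 genes tested.

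The array series compared 3 groups of 3 arrays each. Mature 3T3-L1 cells carried lentivirus with Ebf1 hairpin 2, lentivirus with Ebf1 hairpin 1, or lentivirus with a scrambled control hairpin. All 3 groups went through 3 to 4 rounds of infection and then at least 8 days in puromycin at 5 µg/ml, which kills cells without the virus, so the scrambled cells share the virus and the drug. Total RNA was amplified with a NuGEN kit meant for scarce samples, then biotin-labelled. The labels call the 3 arrays of each group repeats and do not say that they are separate cultures. The p-values therefore measure only how far repeat arrays spread, and that spread may be technical. Values are log2 RMA values, 1 per probe set and array, and differences between them are log2 fold changes.

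Glucose enters a fat cell through facilitative transporters, of which the one encoded by Slc2a1 sits at the cell surface at rest and the one encoded by Slc2a4 moves there in response to insulin. Hexokinases trap the sugar as glucose 6-phosphate, glycolysis splits it to pyruvate, and pyruvate is reduced to lactate, carboxylated to oxaloacetate or oxidised by the pyruvate dehydrogenase complex to acetyl-CoA. In adipocytes citrate formed in the mitochondria is also exported as a source of carbon for fatty acids, which makes pyruvate carboxylase and the citric acid cycle part of fat synthesis.

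The arrays resembled each other within groups, with Pearson correlations over genes of 0.994 to 0.998 within groups and 0.974 to 0.989 between them. Ebf1 itself read 8.90, 8.72 and 9.20 with hairpin 2, 9.32, 9.54 and 9.45 with hairpin 1, and 10.12, 10.15 and 10.31 with the scrambled control. Its log2 difference was -1.25 with hairpin 2 and -0.75 with hairpin 1, and hairpin 2 lay a further -0.50 from hairpin 1 (limma, adjusted p = 0.00351), so the library labels and the targeted gene run the same way. Of 10 adipocyte markers listed, 7 were tested: Pparg, the nuclear receptor that drives adipogenesis, fell under both hairpins (log2 -0.56 with hairpin 2 and -0.25 with hairpin 1), Cidec, a lipid droplet protein, fell with hairpin 2 by 0.25 on the log2 scale, and Adipoq, Fabp4, Lpl, Retn and Cebpa were not called with either. The summed linear signal of the 8 measured adipocyte markers was 1.113e+05 to 1.126e+05 with hairpin 2, 1.135e+05 to 1.139e+05 with hairpin 1 and 1.147e+05 to 1.173e+05 with the scrambled control. Most of it comes from Fabp4, Adipoq and Lpl, with scrambled means of 14.89, 14.82 and 14.71 on the log2 scale. Pparg, the next highest, had 13.50. Differences are compressed near the top of the scale, so the adipocyte sum cannot show whether adipocyte content was kept. For the 6 measured preadipocyte and fibroblast markers the sum was 3.07e+04 to 3.208e+04 with hairpin 2, 2.771e+04 to 3.011e+04 with hairpin 1 and 2.201e+04 to 2.283e+04 with the scrambled control, above it on every hairpin array. Most of this sum comes from Col3a1, with a scrambled mean of 14.26 on the log2 scale, where Pdgfra, the next highest, had 10.47. The single markers did not move together. Col3a1, Col1a1 and Pdgfra were higher with both hairpins, Dlk1, an inhibitor of adipogenesis, was lower with hairpin 2 (log2 -0.83) and higher with hairpin 1 (log2 0.70), Dpp4 was not called and Cd34 lay below the filter. Of 6 leukocyte markers, Ptprc, Adgre1 and Itgam lay below the filter and Csf1r was not called. Cd68, a lysosomal protein abundant in macrophages, was higher with hairpin 2 (log2 1.18, limma, adjusted p = 3.3e-07) and uncalled with hairpin 1 (log2 -0.02). Laptm5, a lysosomal protein of blood cells, was lower with hairpin 2 (log2 -1.82, adjusted p = 6.37e-05) and with hairpin 1 (log2 -1.22, adjusted p = 0.00261). The summed linear signal of the 6 was 587.8 to 939.3 with hairpin 2, 734.9 to 1033 with hairpin 1 and 1140 to 2106 with the scrambled control. In the scrambled group most of it comes from Laptm5, with a mean of 10.48 on the log2 scale, where Csf1r, the next highest, had 6.64. Fewer cells of a type and less RNA per cell cannot be told apart in such bulk samples, and the part of these markers in the results that follow was not tested.

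Changes among the members were small and mostly upward. With hairpin 2, 9 of 35 members were higher and 3 were lower, where 21.5% of all genes tested were called higher and 13.3% lower. With hairpin 1, 18 of 35 were higher and 2 were lower, where 23.7% of all genes were called higher and 9.23% lower. As shares of the members these are 25.7% higher and 8.57% lower with hairpin 2, and 51.4% higher and 5.71% lower with hairpin 1. Counts given below for smaller groups of genes are to be read beside the same shares of all genes. No group was tested as a set. A call means an adjusted p below 0.05 in limma, with Benjamini-Hochberg adjustment over the 12735 genes. The share called higher with hairpin 2 lies near that of all genes, so it is no result about the members. The share called higher with hairpin 1 lies above it. The median log2 difference of the members was 0.04 with hairpin 2 and 0.14 with hairpin 1, against 0.02 and 0.07 for all genes tested. All genes are not matched to the members in signal. The median member lay at percentile 96.6 of gene means, and 23 lay above the 90th. Over all genes the hairpin 1 median was 0.0378 unfiltered and 0.0963 once those below the 50th percentile of signal were dropped. The part of signal level in the members' share was not tested, nor in the smaller groups below. No member reached a log2 difference of 1. The highest fold changes were 1.61 for Slc2a1 with hairpin 2 and 1.75 for Eno3 with hairpin 1. After quantile normalization the hairpin 1 calls were 14 members higher and 1 lower. Over all genes that scaling gave 2459 genes higher and 1700 lower (59.1% of calls higher), beside 3023 higher and 1176 lower (72.0%) on the deposited scale. Both comparisons use the same 3 scrambled arrays, so a gene called with both hairpins was not measured independently in each.

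**Figure D1:**
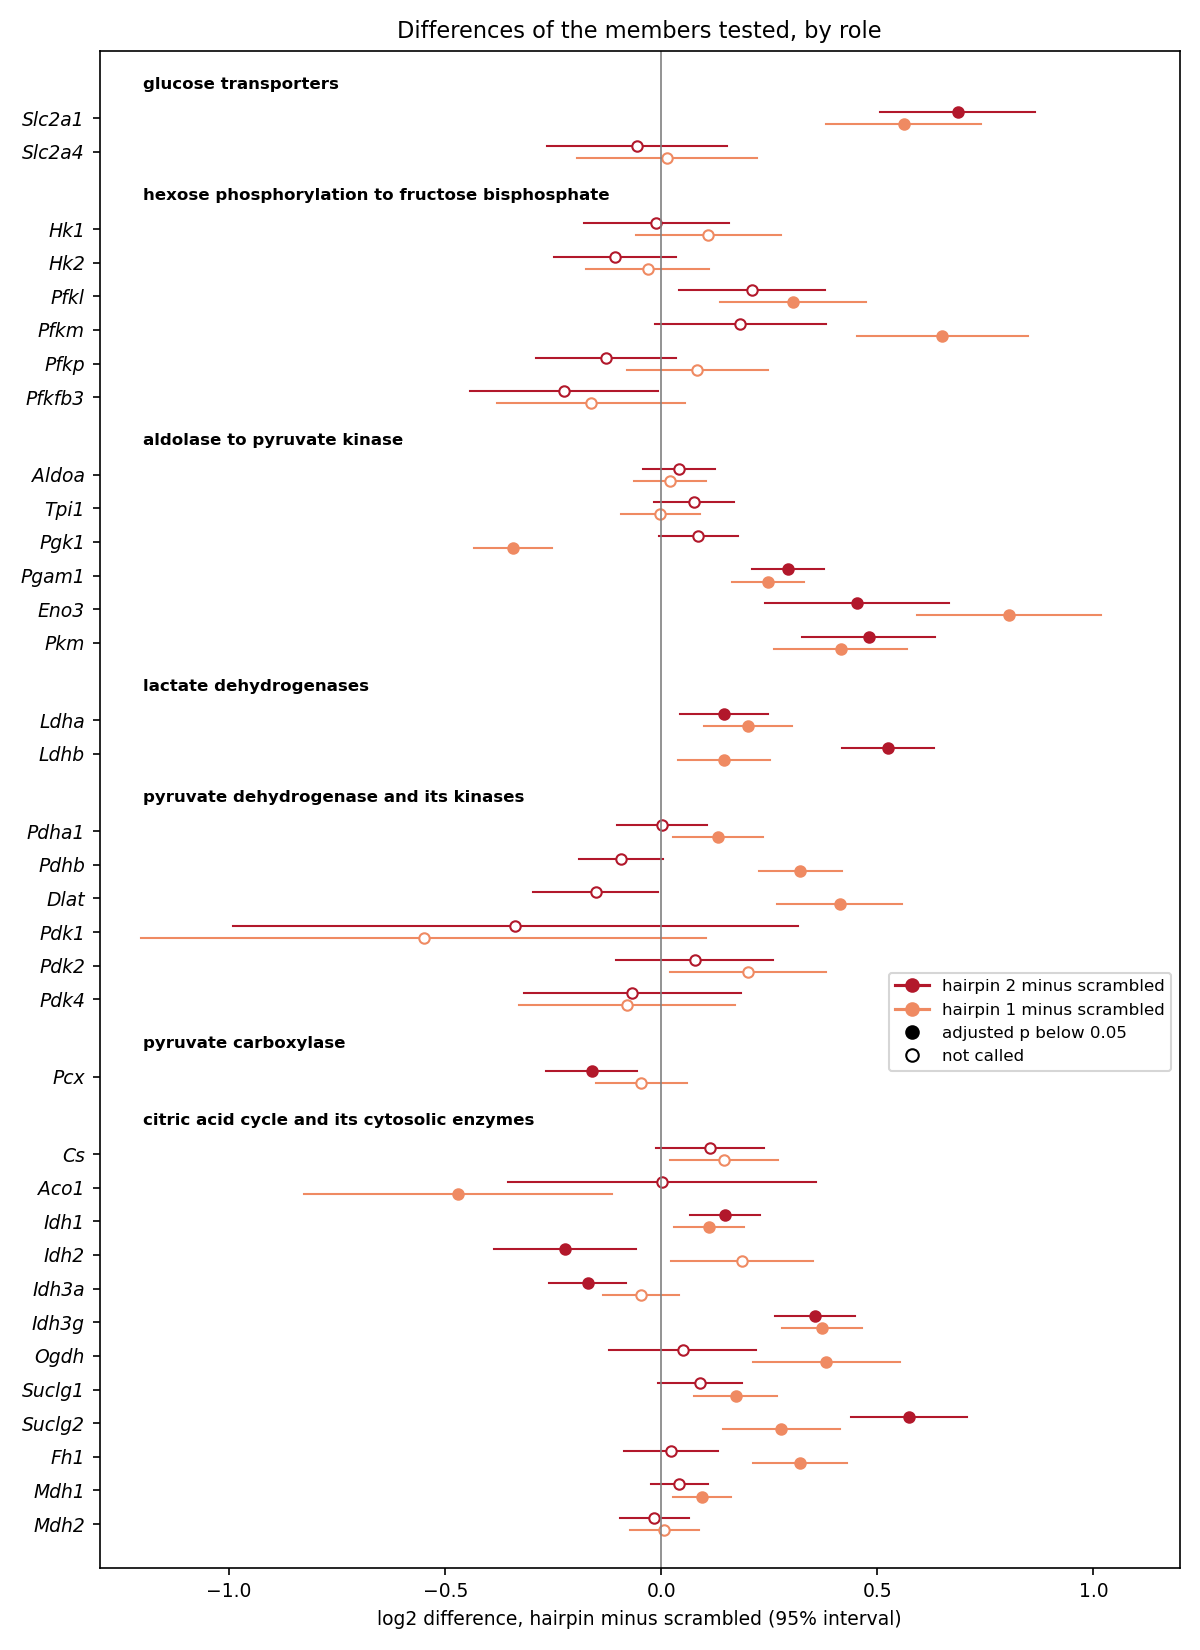
Log2 difference of each of the 35 members tested, hairpin 2 minus scrambled and hairpin 1 minus scrambled, with 95% intervals from limma, grouped by role. Filled points have an adjusted p below 0.05. The transporter Slc2a1, the enzymes from Pgam1 to Pkm and the lactate dehydrogenases lie to the right with both hairpins. The points of Pdhb, Dlat, Ogdh and Fh1 are filled for hairpin 1 and open for hairpin 2.

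The glucose transporters split between a called increase and no call. Slc2a1, the basal glucose transporter, read 10.79, 10.94 and 10.79 with hairpin 2, 10.64, 10.85 and 10.64 with hairpin 1, and 10.11, 10.11 and 10.24 with the scrambled control. Every hairpin array lay above every scrambled array. The fold change was 1.61 with hairpin 2 (log2 0.69, SE 0.0842, adjusted p = 8.83e-06) and 1.48 with hairpin 1 (log2 0.56, SE 0.0842, adjusted p = 0.000102; limma). The hairpins differed from each other by 0.12, with a 95% interval from -0.05 to 0.30 that includes 0. All 3 probe sets of Slc2a1 were higher with both hairpins when each was tested alone. Slc2a4, the insulin-responsive transporter typical of fat and muscle, read 11.59, 11.42 and 11.59 with hairpin 2, 11.36, 11.70 and 11.75 with hairpin 1, and 11.44, 11.62 and 11.71 with the scrambled control. Its groups overlapped, and the intervals of the log2 difference ran from -0.27 to 0.15 for hairpin 2 and from -0.20 to 0.22 for hairpin 1. The second probe set of Slc2a4 was not called either. Slc2a3, the transporter best known from neurons, read 4.97 to 5.33 over the 9 arrays, below the signal filter.

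Of 8 other transporters on the list of related genes, 7 were tested. Slc2a13, a proton myo-inositol cotransporter, had the highest log2 difference of the 7 with each hairpin: it read 8.17, 8.35 and 8.40 with hairpin 2, 7.35, 7.39 and 7.36 with hairpin 1, and 6.88, 6.87 and 6.56 with the scrambled control. The 3 groups did not overlap. Its log2 difference was 1.54 with hairpin 2 and 0.59 with hairpin 1, and the hairpins differed by 0.94 (limma, adjusted p = 4.82e-06). Slc2a10 was higher by 0.51 with hairpin 2 and 0.41 with hairpin 1. Among 8 tested genes of Slc2a4 vesicle traffic, 3 were higher and 2 lower with hairpin 2, and 2 were higher and 1 lower with hairpin 1. Over all genes tested the shares were 21.5% higher and 13.3% lower with hairpin 2, and 23.7% and 9.23% with hairpin 1. The hairpin 1 counts lie near these shares, so they are no result about this list. Tbc1d4, a Rab GTPase-activating protein that holds the vesicles inside the cell until insulin signals, fell by 0.35 on the log2 scale with hairpin 2 and by 0.42 with hairpin 1. Its paralog Tbc1d1 rose by 0.52 with hairpin 2 and 0.41 with hairpin 1. Stx4a, a syntaxin of the plasma membrane where the vesicles fuse, rose by 0.47 with hairpin 2 and had a difference of 0.07 with hairpin 1, which was not called.

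The steps from glucose to fructose 1,6-bisphosphate showed no called change with hairpin 2 and 2 increases among 6 tested genes with hairpin 1, both in phosphofructokinase, the enzyme that commits sugar to glycolysis. Hk2, the hexokinase of insulin-sensitive tissues, read 11.24, 11.32 and 11.24 with hairpin 2, 11.33, 11.32 and 11.37 with hairpin 1, and 11.30, 11.36 and 11.47 with the scrambled control, with overlapping groups and no call. Hk1, the ubiquitous hexokinase, differed by -0.01 with hairpin 2 and 0.11 with hairpin 1, and Pfkfb3, which makes the activator fructose 2,6-bisphosphate, by -0.23 with hairpin 2 and -0.16 with hairpin 1, none of them called. Pfkl, the liver isoform of phosphofructokinase, read 10.30, 10.36 and 10.27 with hairpin 2, 10.38, 10.37 and 10.46 with hairpin 1, and 9.98, 10.15 and 10.16 with the scrambled control. Both hairpin groups lay above the scrambled group without overlap. It differed by 0.21 on the log2 scale with hairpin 2 (limma, adjusted p = 0.0515) and 0.30 with hairpin 1 (adjusted p = 0.00776). Neither side of that threshold held throughout. The hairpin 1 call was lost without scrambled repeat 1 (log2 0.25, adjusted p = 0.0621). Hairpin 2 was called when hairpin 1 repeat 1 or repeat 2 was left out of the shared fit (adjusted p = 0.0263 and 0.0399). In the limma fit of all probe sets, another Pfkl probe set was higher with hairpin 2 (log2 0.45, adjusted p = 0.00564) and hairpin 1 (log2 0.37, adjusted p = 0.0248). A further Pfkl probe set was called with neither.

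Pfkm, the muscle isoform, separated the hairpins. It read 10.59, 10.79 and 10.57 with hairpin 2, 10.97, 11.28 and 11.09 with hairpin 1, and 10.44, 10.38 and 10.58 with the scrambled control. The hairpin 1 arrays lay above all others, while hairpin 2 overlapped the scrambled group. The log2 difference was 0.65 with hairpin 1 (limma, adjusted p = 6.37e-05), and hairpin 2 was lower than hairpin 1 (log2 -0.47, SE 0.0929, adjusted p = 0.00132). Pfkp, the platelet isoform, read 10.68, 10.89 and 10.74 with hairpin 2, 10.89, 10.99 and 11.06 with hairpin 1, and 10.89, 10.91 and 10.89 with the scrambled control. Hairpin 2 was lower than hairpin 1 by a log2 difference of -0.21 (adjusted p = 0.0488), and neither hairpin was called against the scrambled control. That Pfkp call was lost under 13 of 18 alternative settings, among them the removal of any 1 scrambled array, of hairpin 1 repeat 2 or 3, or of hairpin 2 repeat 1 or 3 (adjusted p 0.0727 to 0.191).

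From aldolase to pyruvate kinase 6 genes were tested, of which 3 rose with each hairpin and 1 fell with hairpin 1. Aldoa and Tpi1, aldolase A and triose phosphate isomerase, had log2 differences of 0.04 and 0.08 with hairpin 2 and of 0.02 and 0.00 with hairpin 1, none of them called. Aldoc, the brain-typical aldolase, read 5.06 to 5.61 over the 9 arrays and lay below the filter. Pgam1, phosphoglycerate mutase, read 13.59, 13.52 and 13.61 with hairpin 2, 13.50, 13.52 and 13.56 with hairpin 1, and 13.28, 13.30 and 13.26 with the scrambled control. Every hairpin array was higher than every scrambled array. Pgam1 rose by 0.29 with hairpin 2 (limma, adjusted p = 2.08e-05) and 0.25 with hairpin 1 (adjusted p = 0.000174). Pkm, the pyruvate kinase of most tissues outside the liver, read 12.63, 12.64 and 12.61 with hairpin 2, 12.41, 12.61 and 12.66 with hairpin 1, and 12.00, 12.16 and 12.27 with the scrambled control. Neither hairpin group overlapped the scrambled group. The fold change was 1.40 with hairpin 2 (adjusted p = 7.13e-05) and 1.33 with hairpin 1 (adjusted p = 0.000387).

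Eno3, the muscle enolase, had the largest increase of the members with hairpin 1. It read 8.74, 8.97 and 8.73 with hairpin 2, 8.98, 9.27 and 9.26 with hairpin 1, and 8.34, 8.36 and 8.39 with the scrambled control. Both hairpin groups lay above the scrambled group, with hairpin 1 the highest. Eno3 rose by 0.45 with hairpin 2 (limma, adjusted p = 0.00208) and 0.80 with hairpin 1 (adjusted p = 1.71e-05). Hairpin 2 was lower than hairpin 1 (log2 -0.35, SE 0.100, adjusted p = 0.0149). The difference between the hairpins was no longer called without hairpin 1 repeat 2 or 3 or hairpin 2 repeat 1 or 3 (adjusted p 0.0580 to 0.0684). As Eno3 and Pfkm are isoforms best known from muscle, muscle markers are given beside them. Of 7 listed, Myog, Myod1 and Myh1 lay below the filter, Des was higher with hairpin 2 by 0.62 and with hairpin 1 by 0.67, Acta1 was higher with hairpin 1 by 0.69, Ckm was lower with hairpin 1 (log2 -0.38), and Mb was not called. The summed linear signal of the 7 was 1223 to 1272 with hairpin 2, 1314 to 1500 with hairpin 1 and 985.9 to 1086 with the scrambled control. Their part in the result was not tested.

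Pgk1, phosphoglycerate kinase and the enzyme at the earlier ATP-yielding step of glycolysis, fell with hairpin 1. The later Pgam1, Eno3 and Pkm rose there, and the earlier Aldoa and Tpi1 were not called. It read 13.70, 13.60 and 13.64 with hairpin 2, 13.23, 13.20 and 13.22 with hairpin 1, and 13.54, 13.51 and 13.63 with the scrambled control. The 3 hairpin 1 arrays lay below all the others, and hairpin 2 overlapped the scrambled group. The log2 difference was 0.09 with hairpin 2 (limma, adjusted p = 0.14) and -0.34 with hairpin 1 (SE 0.0427, adjusted p = 1.67e-05), and hairpin 2 minus hairpin 1 was 0.43 (adjusted p = 1.94e-06). Its other 2 probe sets were also higher with hairpin 2 than with hairpin 1, by 0.31 and 0.18, and neither was called between hairpin 1 and the scrambled control.

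**Figure D2:**
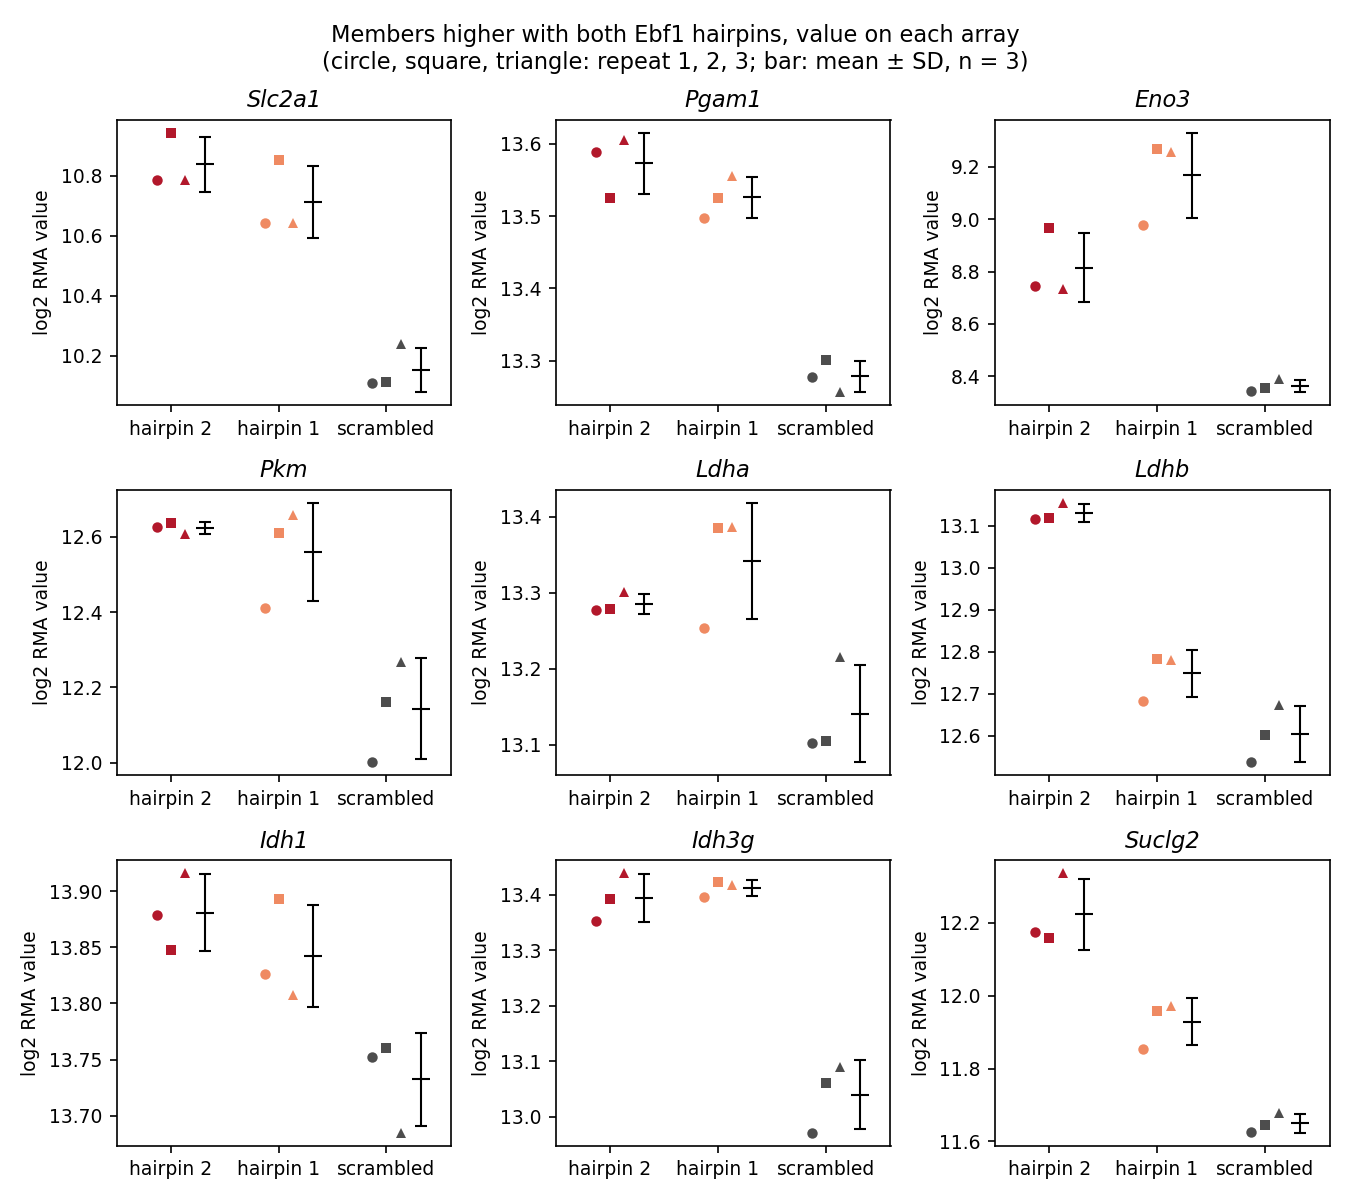
Log2 RMA value on each array for the 9 members called higher with both hairpins, by group, with the mean and SD of the 3 arrays beside the points. In each panel the hairpin 2 and hairpin 1 points lie above the scrambled points, and for Ldhb and Suclg2 hairpin 2 lies above hairpin 1.

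Both lactate dehydrogenase genes rose. Ldha, the subunit typical of lactate-producing tissue, read 13.28, 13.28 and 13.30 with hairpin 2, 13.25, 13.38 and 13.39 with hairpin 1, and 13.10, 13.11 and 13.21 with the scrambled control, and neither hairpin group overlapped the scrambled group. Ldha rose by 0.14 with hairpin 2 (limma, adjusted p = 0.0272) and 0.20 with hairpin 1 (adjusted p = 0.00426). The hairpin 2 call was lost without any 1 of its own arrays or without scrambled repeat 1 or 2 (adjusted p 0.0577 to 0.113). Ldhb, the heart-typical subunit, read 13.12, 13.12 and 13.15 with hairpin 2, 12.68, 12.78 and 12.78 with hairpin 1, and 12.54, 12.60 and 12.67 with the scrambled control. Hairpin 2 stood clear of both other groups, and hairpin 1 lay just above the scrambled arrays. The fold change was 1.44 with hairpin 2 (adjusted p = 5.37e-07) and 1.11 with hairpin 1 (adjusted p = 0.0362), and hairpin 2 exceeded hairpin 1 by 0.38 on the log2 scale (adjusted p = 3.14e-05). Each of the 4 probe sets of Ldhb was higher with hairpin 2 when tested alone, by 0.49 to 0.61. The hairpin 1 call of Ldhb was lost under 10 of 18 alternative settings, including those without hairpin 1 repeat 2 or 3, hairpin 2 repeat 1, or scrambled repeat 1 or 2 (adjusted p 0.0546 to 0.174). On the list of 9 further glycolytic and lactate export genes tested, 1 was higher with each hairpin and 0 were lower. Bpgm, which makes 2,3-bisphosphoglycerate, was the one with hairpin 1 (log2 0.36), with a difference of 0.22 with hairpin 2 that was not called. With hairpin 2 it was Slc16a1, a lactate and pyruvate transporter named here after its value was seen (log2 0.36, against -0.15 and no call with hairpin 1).

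Promoter sequence is shown for 3 genes that were higher with both hairpins, Slc2a1, Pgam1 and Ldha, and for Pgk1, which was lower with hairpin 1. These 4 were chosen because they hold the letters ACGTG, the core of the element bound by hypoxia-inducible factors, or its reverse complement CACGT in the 250 bases before their start. Capitals mark these letters, and CACGTG counts as both. The sequences are RefSeq's on GRCm38.p6, 5′ to 3′ in the direction of the gene.
Slc2a1, chr4:119108495-119108744, + strand: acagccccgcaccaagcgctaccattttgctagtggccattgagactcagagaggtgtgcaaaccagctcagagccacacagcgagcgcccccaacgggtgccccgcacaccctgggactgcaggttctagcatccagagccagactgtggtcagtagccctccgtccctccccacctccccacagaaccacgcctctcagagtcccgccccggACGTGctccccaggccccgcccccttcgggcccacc
Pgam1, chr19:41911621-41911870, + strand: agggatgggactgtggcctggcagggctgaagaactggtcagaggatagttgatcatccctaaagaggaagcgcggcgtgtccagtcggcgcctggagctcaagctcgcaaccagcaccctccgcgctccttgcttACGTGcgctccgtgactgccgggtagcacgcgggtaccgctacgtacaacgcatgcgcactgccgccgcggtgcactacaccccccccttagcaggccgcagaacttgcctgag
Ldha, chr7:46845554-46845803, + strand: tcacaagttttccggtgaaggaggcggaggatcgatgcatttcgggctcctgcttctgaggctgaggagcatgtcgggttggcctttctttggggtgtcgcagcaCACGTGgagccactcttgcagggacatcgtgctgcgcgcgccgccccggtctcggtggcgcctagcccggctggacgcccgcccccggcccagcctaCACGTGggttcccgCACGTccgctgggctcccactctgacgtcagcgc
Pgk1, chrX:106186850-106187099, + strand: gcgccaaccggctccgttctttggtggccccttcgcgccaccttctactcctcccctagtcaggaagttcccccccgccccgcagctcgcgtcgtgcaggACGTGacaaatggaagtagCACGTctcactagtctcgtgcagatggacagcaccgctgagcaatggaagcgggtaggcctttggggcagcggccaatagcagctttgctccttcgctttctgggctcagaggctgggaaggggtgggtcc
Windows were available for 36 members, and 15 of them (41.7%) held the core in at least 1 window, as did 4998 of 27025 genes in the table (18.5%). Of the 9 members higher with both hairpins, 5 held it (Slc2a1, Pgam1, Pkm, Ldha and Idh3g) and Eno3, Ldhb, Idh1 and Suclg2 did not. A second window of Ldha did not hold it either. Among members called with neither hairpin, 4 of the 11 with a window held it (Hk2, Pfkfb3, Aldoa and Pdk2). Base composition differs between the groups compared: the median content of G and C was 61.2% in the members' windows and 52.4% over all genes. The letters TCCCNNGGG, the core of the palindrome bound by early B cell factors, were searched on both strands as well. They were found in 0 of the 36 members and in 1743 of 27025 genes (6.45%). These matches describe the letters in these windows. Among the regulators of glucose genes listed, Egln3, a prolyl hydroxylase that marks hypoxia-inducible factors for decay and is itself induced by them, read 10.76, 10.78 and 10.87 with hairpin 2, 10.85, 10.78 and 10.81 with hairpin 1, and 9.09, 9.24 and 9.23 with the scrambled control. It was 3.07-fold higher with hairpin 2 and 3.09-fold higher with hairpin 1. Epas1, which encodes one of these factors, rose by 0.62 on the log2 scale with hairpin 2 and by 0.26 with hairpin 1. Of the 16 regulators tested, 2 were higher and 2 lower with hairpin 2, and 6 were higher and 4 lower with hairpin 1. Over all genes tested the shares were 21.5% higher and 13.3% lower with hairpin 2, and 23.7% and 9.23% with hairpin 1. The hairpin 2 counts do not lie above these shares, so they are no result about this list. The part of Egln3 and Epas1 in the values of the members was not tested.

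Of the 3 member subunits of the pyruvate dehydrogenase complex, Pdhb and Dlat differed between the hairpins and Pdha1 was not called between them. None of the 3 was called with hairpin 2, and all 3 were called higher with hairpin 1. Pdhb, the beta subunit of the decarboxylase, read 13.12, 13.05 and 13.13 with hairpin 2, 13.48, 13.59 and 13.47 with hairpin 1, and 13.15, 13.21 and 13.21 with the scrambled control. Hairpin 1 lay above and hairpin 2 below the scrambled arrays, without overlap. Hairpin 2 minus hairpin 1 was -0.42 (limma, SE 0.0453, adjusted p = 5.27e-06), made up of -0.09 with hairpin 2 (adjusted p = 0.131) and 0.32 with hairpin 1 (adjusted p = 5.48e-05). Dlat, the acetyltransferase core, read 11.49, 11.51 and 11.44 with hairpin 2, 12.05, 12.03 and 12.04 with hairpin 1, and 11.50, 11.76 and 11.63 with the scrambled control. The hairpin 1 arrays lay above all others. Dlat had the lowest hairpin 2 minus hairpin 1 value of the members, -0.56 (adjusted p = 1.38e-05), from -0.15 with hairpin 2 (adjusted p = 0.101) and 0.41 with hairpin 1 (adjusted p = 0.000241). Without scrambled repeat 1 the hairpin 2 difference was called as well (log2 -0.22, adjusted p = 0.0359). Pdha1, the alpha subunit, differed by 0.00 with hairpin 2 and 0.13 with hairpin 1 (adjusted p = 0.0492). That hairpin 1 call was lost under 13 of 18 settings, including each removal of 1 array except hairpin 1 repeat 1 and hairpin 2 repeat 2 (adjusted p 0.0615 to 0.185). Without hairpin 1 repeat 1 the difference of Pdha1 between the hairpins was called (log2 -0.18, adjusted p = 0.00427). A second Pdha1 probe set was lower with hairpin 2 than hairpin 1 in the limma fit of all probe sets (log2 -0.34, adjusted p = 0.00825). It was higher with hairpin 1 (log2 0.25, adjusted p = 0.0413) and not called with hairpin 2.

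**Figure D3:**
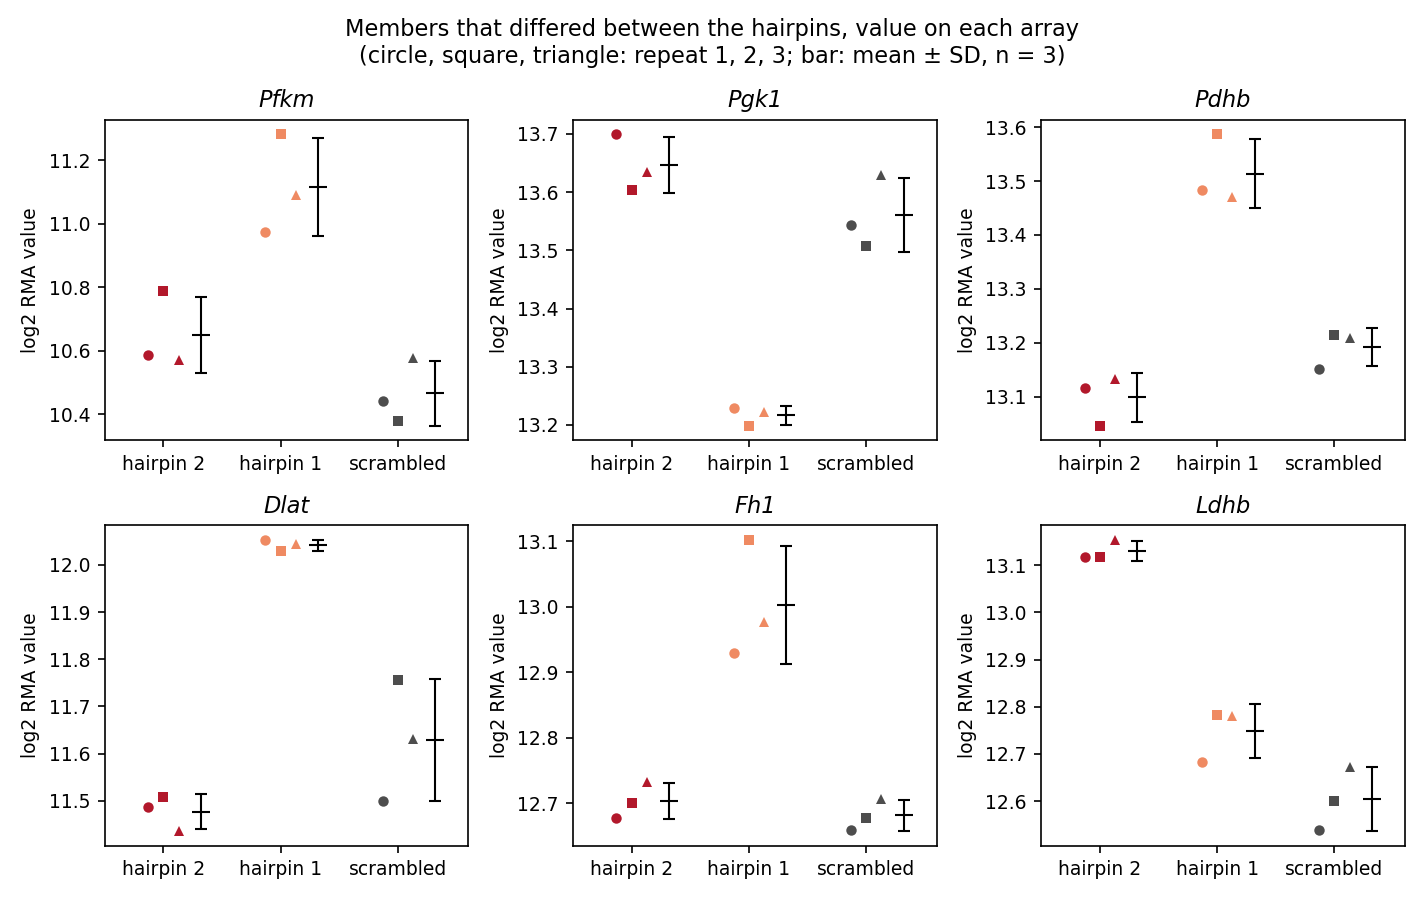
Log2 RMA value on each array for 6 of the 13 members that differed between the hairpins, by group, with the mean and SD of the 3 arrays. Pfkm, Pdhb, Dlat and Fh1 are lower with hairpin 2 than with hairpin 1, and Pgk1 and Ldhb are higher.

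In the probe set that stands for each, the kinases that switch the complex off had no called change among the members. Pdk4, the kinase induced by fasting, read 8.11, 8.11 and 8.21 with hairpin 2, 7.87, 8.28 and 8.24 with hairpin 1, and 8.06, 8.41 and 8.16 with the scrambled control, with overlapping groups. Pdk2 differed by 0.08 with hairpin 2 and 0.20 with hairpin 1 (limma, adjusted p = 0.0839). Pdk1 read 10.36, 10.00 and 10.41 with hairpin 2, 10.99, 9.06 and 10.09 with hairpin 1, and 10.55, 10.82 and 10.41 with the scrambled control, and the SD of 0.970 among the hairpin 1 arrays left it uncalled. Without hairpin 1 repeat 1 it was called lower with hairpin 1 (log2 -1.02, adjusted p = 0.00227) and higher with hairpin 2 than hairpin 1 (log2 0.69, adjusted p = 0.0274). Other probe sets of Pdk1, given below, were called in the other direction. Outside the members, Pdk3, a kinase of the same family, read 9.79, 9.73 and 9.82 with hairpin 2, 9.98, 10.18 and 10.15 with hairpin 1, and 8.83, 8.81 and 8.75 with the scrambled control. The 3 groups did not overlap. It was 1.97-fold higher with hairpin 2 and 2.48-fold higher with hairpin 1. Pdp1, a phosphatase that reverses the kinases, was higher by 0.70 with hairpin 2 and had 0.22 with hairpin 1, which was not called. Mpc1, a subunit of the carrier that brings pyruvate into mitochondria, was higher by 0.21 with hairpin 2 and by 0.14 with hairpin 1.

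Pcx, pyruvate carboxylase, read 13.47, 13.62 and 13.42 with hairpin 2, 13.57, 13.60 and 13.68 with hairpin 1, and 13.62, 13.68 and 13.69 with the scrambled control. The hairpin 2 arrays lay below the scrambled arrays, with hairpin 2 repeat 2 and scrambled repeat 1 equal after rounding. Pcx differed by -0.16 with hairpin 2 (limma, adjusted p = 0.0189) and -0.05 with hairpin 1 (adjusted p = 0.524). The hairpin 2 call was lost without hairpin 2 repeat 1 or 3 or scrambled repeat 2 or 3 (adjusted p 0.0586 to 0.107). Without hairpin 2 repeat 2 the difference between the hairpins was called (log2 -0.17, adjusted p = 0.0141).

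The citric acid cycle and its cytosolic counterparts had 12 members tested, with 3 higher and 2 lower with hairpin 2, and 7 higher and 1 lower with hairpin 1. Over all genes tested 21.5% were higher and 13.3% lower with hairpin 2, and 23.7% and 9.23% with hairpin 1. The hairpin 2 counts lie near these shares, so they are no result about this group. Cs, citrate synthase at the entry of the cycle, read 13.09, 13.19 and 13.08 with hairpin 2, 13.21, 13.05 and 13.20 with hairpin 1, and 12.89, 13.08 and 13.05 with the scrambled control. Its groups overlapped and no difference was called, with 0.11 for hairpin 2 and 0.14 for hairpin 1. Without hairpin 1 repeat 2 the hairpin 1 difference was called (log2 0.20, limma, adjusted p = 0.0264). Another Cs probe set was higher with hairpin 1 by 0.30 (adjusted p = 0.000541) in the fit of all probe sets. With the mean of the probe sets Cs was called higher with hairpin 1 (log2 0.21, adjusted p = 0.00551) and lower with hairpin 2 than hairpin 1 (log2 -0.14, adjusted p = 0.0471). Idh3g, the gamma subunit of the NAD-dependent isocitrate dehydrogenase, read 13.35, 13.39 and 13.44 with hairpin 2, 13.40, 13.42 and 13.42 with hairpin 1, and 12.97, 13.06 and 13.09 with the scrambled control. Both hairpin groups lay above the scrambled group and overlapped each other. The fold change was 1.28 with hairpin 2 (adjusted p = 9.03e-06) and 1.29 with hairpin 1 (adjusted p = 9.36e-06). The other Idh3g probe set was not called with hairpin 2 in the limma fit of all probe sets (log2 0.11, adjusted p = 0.154). It was higher with hairpin 1 (log2 0.23, adjusted p = 0.0037).

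The alpha and beta subunits of that enzyme were not called higher with either hairpin. Idh3a, its catalytic alpha subunit, read 13.20, 13.14 and 13.21 with hairpin 2, 13.30, 13.28 and 13.35 with hairpin 1, and 13.32, 13.40 and 13.35 with the scrambled control. The hairpin 2 arrays lay below all others. The log2 difference was -0.17 with hairpin 2 (limma, adjusted p = 0.00425) and -0.05 with hairpin 1 (adjusted p = 0.43), and -0.12 between hairpin 2 and hairpin 1 (adjusted p = 0.0349). With the mean of all probe sets of Idh3a the hairpin 2 difference was 0.03 (adjusted p = 0.78), and the other probe sets were not called. The call between the hairpins was lost without hairpin 2 repeat 1, 2 or 3, hairpin 1 repeat 3 or scrambled repeat 3 (adjusted p 0.0508 to 0.137). Idh3b, the beta subunit and no member, had log2 differences of -0.36 with hairpin 2 (adjusted p = 8.83e-06) and 0.10 with hairpin 1 (adjusted p = 0.0839). Idh2, the mitochondrial NADP-dependent enzyme, read 11.97, 12.16 and 12.00 with hairpin 2, 12.26, 12.59 and 12.51 with hairpin 1, and 12.24, 12.24 and 12.32 with the scrambled control. Hairpin 2 lay below the scrambled group, and hairpin 1 overlapped it. Hairpin 2 minus hairpin 1 was -0.41 (adjusted p = 0.000865), from -0.22 with hairpin 2 (adjusted p = 0.0342) and 0.19 with hairpin 1 (adjusted p = 0.0762). The hairpin 2 call of Idh2 was lost without hairpin 2 repeat 1 or 3 or any 1 scrambled array (adjusted p 0.0627 to 0.133), and without hairpin 1 repeat 1 the hairpin 1 difference was called (log2 0.28, adjusted p = 0.00207).

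Later steps of the cycle again parted the hairpins. Ogdh, the decarboxylase of the oxoglutarate dehydrogenase complex, read 10.69, 10.79 and 10.69 with hairpin 2, 10.93, 11.15 and 11.08 with hairpin 1, and 10.57, 10.68 and 10.76 with the scrambled control. Hairpin 1 lay above both other groups, which overlapped. Its differences were 0.05 with hairpin 2 (limma, adjusted p = 0.699), 0.38 with hairpin 1 (adjusted p = 0.00169) and -0.33 between hairpin 2 and hairpin 1 (adjusted p = 0.00522). Fh1, fumarate hydratase, read 12.68, 12.70 and 12.73 with hairpin 2, 12.93, 13.10 and 12.98 with hairpin 1, and 12.66, 12.68 and 12.71 with the scrambled control, again with hairpin 1 above the rest. Its log2 difference was 0.02 with hairpin 2 (adjusted p = 0.796), 0.32 with hairpin 1 (adjusted p = 0.000185) and -0.30 between hairpin 2 and hairpin 1 (adjusted p = 0.000385). Suclg2, the GTP-specific beta subunit of succinyl-CoA synthetase, ran the other way. It read 12.17, 12.16 and 12.34 with hairpin 2, 11.85, 11.96 and 11.97 with hairpin 1, and 11.63, 11.65 and 11.68 with the scrambled control, with 3 separate groups. The fold change was 1.49 with hairpin 2 (adjusted p = 2.9e-06) and 1.21 with hairpin 1 (adjusted p = 0.00319), and hairpin 2 exceeded hairpin 1 by 0.30 on the log2 scale (adjusted p = 0.00238). The alpha subunit Suclg1 differed by 0.09 with hairpin 2, which was not called, and by 0.17 with hairpin 1 (adjusted p = 0.00799), and its difference between the hairpins was called without hairpin 1 repeat 1 (log2 -0.12, adjusted p = 0.0223). Mdh2, the mitochondrial malate dehydrogenase, differed by -0.02 with hairpin 2 and 0.01 with hairpin 1 and was not called. Its second probe set was higher with hairpin 1 in the limma fit of all probe sets (log2 0.15, adjusted p = 0.0241) and not called with hairpin 2 (log2 0.03).

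With genes of the same steps that are not members added, 21 genes of the pyruvate dehydrogenase complex and the mitochondrial cycle were tested, of which 12 are members. Hairpin 2 minus hairpin 1 was negative for 20 of the 21, with a median log2 difference of -0.13, and 11 were called lower and 1 higher. Over all genes tested 17.4% were called lower with hairpin 2 than with hairpin 1 and 11.6% higher, and the median was -0.04. The difference was positive for 42.65% of all genes, so most genes shared the negative sign. Against the scrambled control, 2 of the 21 were higher and 4 lower with hairpin 2 (median -0.02), and 10 were higher and 0 lower with hairpin 1 (median 0.17). For the 9 that are not members, 0 were higher and 5 lower in hairpin 2 than in hairpin 1: Idh3b (log2 -0.46), Dlst (-0.46), Sdhc (-0.30), Sdha (-0.25) and Sdhb (-0.20), of which Dlst and the Sdh genes are named after their values were seen. Dlst is the core of the oxoglutarate dehydrogenase complex and the Sdh genes encode succinate dehydrogenase. Pdhx and Dld, subunits of the pyruvate dehydrogenase complex that are no members, were not called between the hairpins. Among all 35 members tested, hairpin 2 was higher than hairpin 1 in 4 and lower in 9, a share of 11.4% and 25.7%. After quantile normalization these counts were 3 and 8. Over all genes the median was then 0.0022, with 49% of calls higher, beside 40.1% on the deposited scale. The part of scaling in the values of the 21 genes was not tested.

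**Figure D4:**
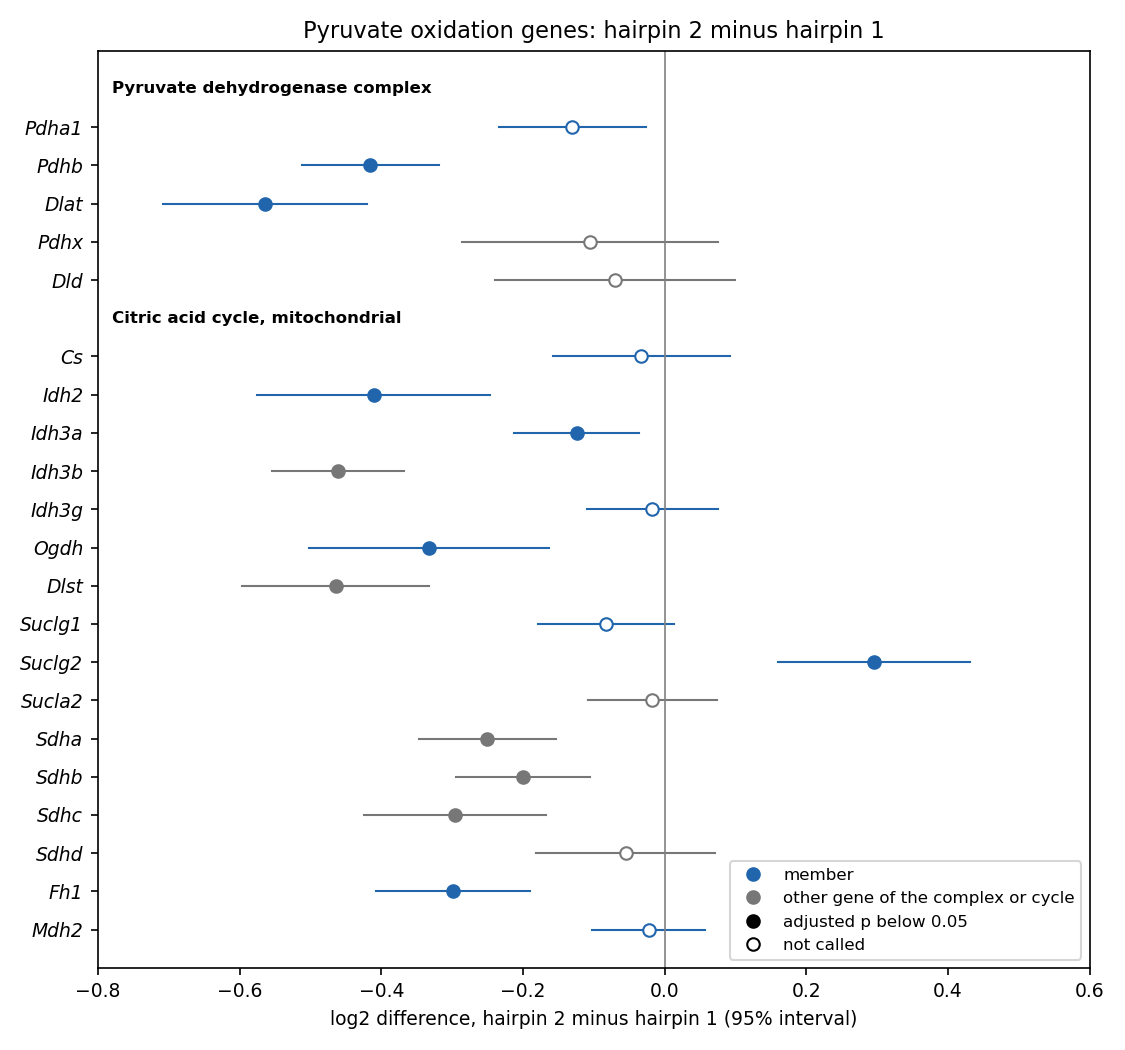
Log2 difference of hairpin 2 minus hairpin 1 with 95% intervals from limma for 21 genes of the pyruvate dehydrogenase complex and the mitochondrial citric acid cycle, members in blue and other genes in grey, filled where the adjusted p is below 0.05. All points but that of Suclg2 lie left of 0.

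The cytosolic enzymes on the list had small differences, apart from Aco1. Idh1, the cytosolic NADP-dependent isocitrate dehydrogenase, read 13.88, 13.85 and 13.92 with hairpin 2, 13.83, 13.89 and 13.81 with hairpin 1, and 13.75, 13.76 and 13.68 with the scrambled control. Its hairpin arrays lay above the scrambled arrays, by a log2 difference of 0.15 with hairpin 2 (limma, adjusted p = 0.00609) and 0.11 with hairpin 1 (adjusted p = 0.0367). The hairpin 1 call was lost without any 1 scrambled array, hairpin 1 repeat 2 or hairpin 2 repeat 1 (adjusted p 0.0508 to 0.155). With the mean of both Idh1 probe sets the hairpin 1 difference turned to -0.20 (adjusted p = 0.188), the hairpin 2 difference of 0.16 was no longer called (adjusted p = 0.313), and hairpin 2 was higher than hairpin 1 (log2 0.36, adjusted p = 0.0271). Without the mean-variance trend neither hairpin was called for Idh1 (adjusted p = 0.103 with hairpin 2 and 0.225 with hairpin 1). Mdh1, the cytosolic malate dehydrogenase, differed by 0.04 with hairpin 2 and 0.09 with hairpin 1 (adjusted p = 0.0308). That hairpin 1 call was lost under 9 of 18 settings. Among them were the mean of all probe sets, quantile normalization and the fits without hairpin 1 repeat 3 or scrambled repeat 1 or 2 (adjusted p 0.0743 to 0.137 without 1 array). Of its 5 probe sets, 1 was called with hairpin 1 in the limma fit of all probe sets (log2 0.41, adjusted p = 0.0108). Another had an uncalled -0.27. Aco1, the cytosolic aconitase that also binds iron-responsive RNA, read 13.28, 13.18 and 13.20 with hairpin 2, 13.35, 12.40 and 12.49 with hairpin 1, and 13.14, 13.42 and 13.10 with the scrambled control. Hairpin 1 repeats 2 and 3 were low and repeat 1 was not. Aco1 was called lower with hairpin 1 (log2 -0.47, adjusted p = 0.0411) and higher in hairpin 2 than hairpin 1 (log2 0.47, adjusted p = 0.0451). The hairpin 1 call was lost without hairpin 1 repeat 2 or 3, hairpin 2 repeat 1 or 3, or scrambled repeat 1 or 2 (adjusted p 0.0530 to 0.239). The call between the hairpins was lost in 7 of the 9 fits without 1 array, those without hairpin 1 repeat 1 and scrambled repeat 2 excepted (adjusted p 0.0503 to 0.249).

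Probe sets of 1 gene disagreed for several members, among them Aco1 and Pdk1, and the same 2 arrays read low in probe sets of 4 members. The 37 members with a probe set have 85 in all, 26 members have more than 1, and 0 members had probe sets called in opposite directions when all probe sets were tested together. A second probe set of Aco1 read 11.66, 11.66 and 11.68 with hairpin 2, 11.75, 11.84 and 11.86 with hairpin 1, and 11.34, 11.48 and 11.50 with the scrambled control, higher with hairpin 2 by 0.22 (limma, adjusted p = 0.0243) and with hairpin 1 by 0.38 (adjusted p = 0.000917). A second probe set of Pdk1 was higher with hairpin 2 by 0.32 (adjusted p = 0.0207) and with hairpin 1 by 0.39 (adjusted p = 0.00671), where the probe set used above had negative values that were not called. Another Pdk1 probe set was higher with hairpin 1 (log2 0.31, adjusted p = 0.0233) and lower with hairpin 2 than hairpin 1 (log2 -0.46, adjusted p = 0.00225). The remaining Pdk1 probe set, with a low scrambled mean of 5.07, was higher with hairpin 2 (log2 0.31, adjusted p = 0.00376). The probe sets of Aco1 and Pdk1 used above, and a second probe set of Idh1 and of Mdh1, each read lower on hairpin 1 repeats 2 and 3 than on hairpin 1 repeat 1. The sign of the Aco1 and Pdk1 differences thus depended on the probe set taken. These 4 carry the array maker's suffixes for probes that match several transcripts of a gene or related sequences, and the part of this in the values was not tested.

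**Figure D5:**
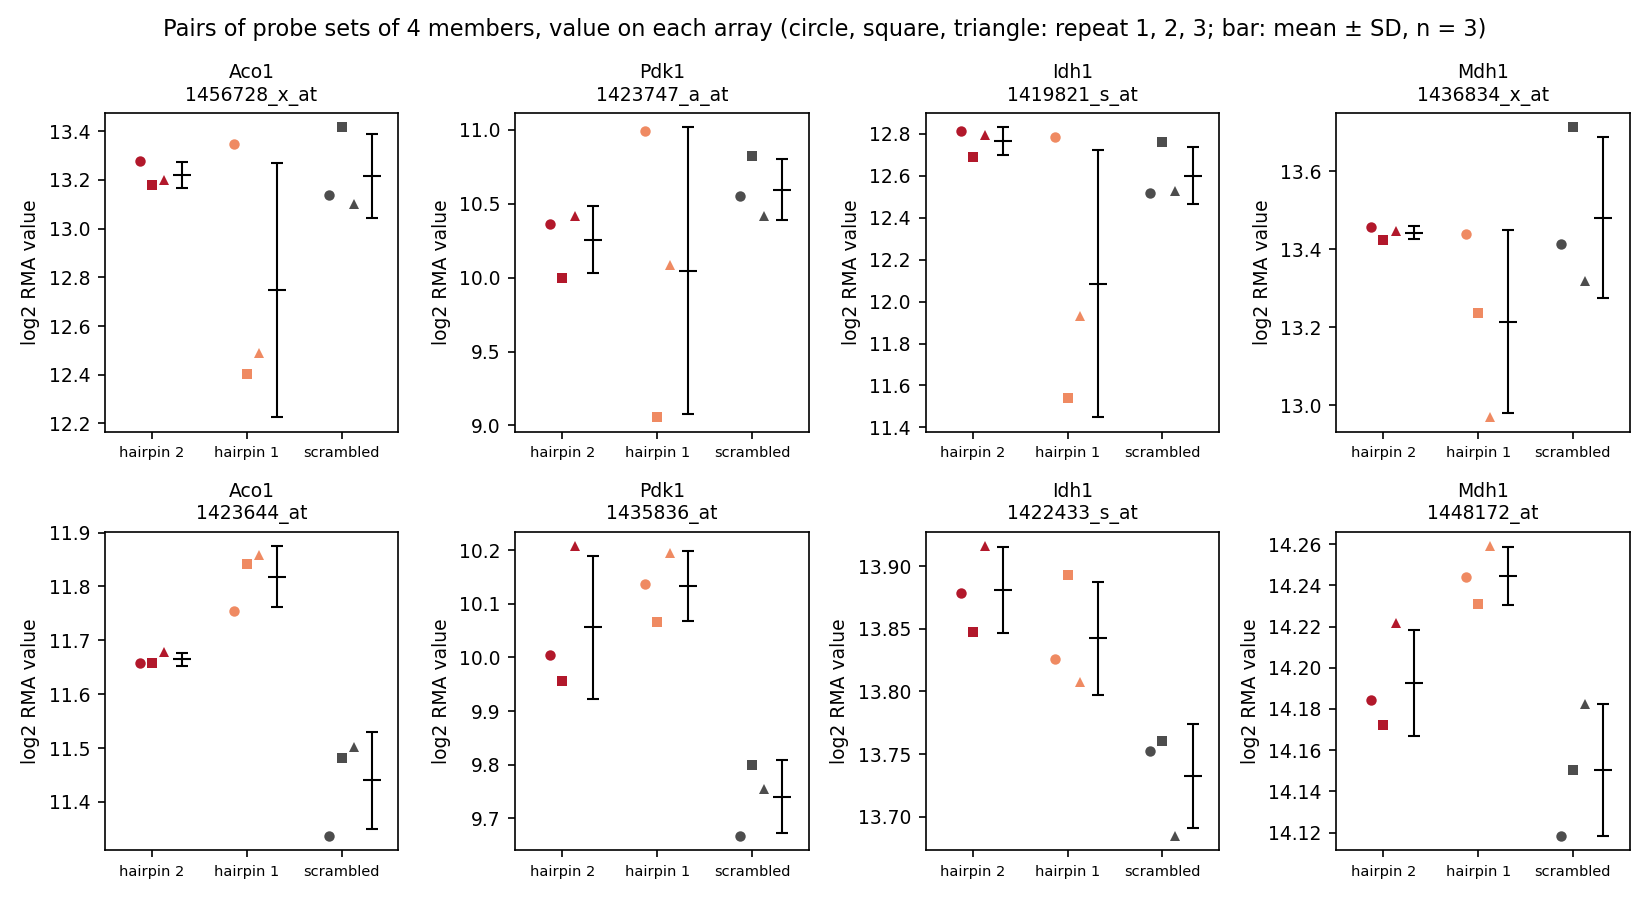
Log2 RMA value on each array for a pair of probe sets of each of Aco1, Pdk1, Idh1 and Mdh1, by group, with the mean and SD of the 3 arrays. In the upper row the square and triangle of hairpin 1, repeats 2 and 3, lie below its circle, repeat 1, and in the lower row the hairpin 1 means lie above the scrambled means.

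Of 98 other genes of these and adjoining pathways, 89 had a probe set and 81 were tested. With hairpin 2, 28 were higher and 9 lower, with a median log2 difference of 0.10. With hairpin 1, 31 were higher and 8 lower, with a median of 0.12. Over all genes tested 21.5% were higher and 13.3% lower with hairpin 2 (median 0.02), and 23.7% and 9.23% with hairpin 1 (median 0.07). The shuttles that carry glycolytic electrons into mitochondria had 6 of 7 tested genes higher with each hairpin. Got2, the mitochondrial aspartate aminotransferase, read 12.77, 12.78 and 12.75 with hairpin 2, 12.24, 12.20 and 12.23 with hairpin 1, and 11.78, 11.73 and 11.84 with the scrambled control. It was 1.97-fold higher with hairpin 2 and 1.36-fold higher with hairpin 1, and the groups did not overlap. The aspartate and glutamate carrier Slc25a12 rose by 0.41 with hairpin 2 and 0.62 with hairpin 1 on the log2 scale, and Gpd1l, a paralog of glycerol 3-phosphate dehydrogenase, by 0.64 with hairpin 2 and 0.56 with hairpin 1.

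On the list for citrate export and NADPH, 5 of 6 tested genes were higher with hairpin 2 and 4 with hairpin 1. The mitochondrial citrate carrier Slc25a1 rose by 0.36 with hairpin 2 and 0.40 with hairpin 1. Malic enzyme Me2 rose by 0.38 with hairpin 2 and 0.47 with hairpin 1, and Me1, the cytosolic form, by 0.15 with hairpin 2 and 0.32 with hairpin 1. In the pentose phosphate pathway 2 of 7 were higher with hairpin 2 and 3 with hairpin 1. Over all genes tested 21.5% were higher with hairpin 2 and 23.7% with hairpin 1. The hairpin 2 count lies near that share, so it is no result about the pathway. Pgls, which opens the lactone of the oxidative branch, rose by 0.39 with hairpin 2 and 0.43 with hairpin 1, Taldo1, transaldolase, by 0.19 with hairpin 2 and 0.16 with hairpin 1, and H6pd, the enzyme of the endoplasmic reticulum, by 0.61 with hairpin 1 with an uncalled 0.23 with hairpin 2. Glycogen genes had 4 higher and 1 lower of 7 with hairpin 2, and 3 higher and 1 lower with hairpin 1. Ugp2, which makes UDP-glucose, rose by 0.54 with hairpin 2 and 0.52 with hairpin 1, and Pgm2, a phosphoglucomutase, by 0.57 with hairpin 2 and 0.46 with hairpin 1. Pygb, the brain glycogen phosphorylase, was higher with hairpin 1 by 0.63 and had an uncalled 0.16 with hairpin 2. Ppargc1b, a coactivator of mitochondrial genes, fell by 0.26 with hairpin 2 and had -0.17 with hairpin 1, which was not called. These differences are on the log2 scale.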

How the data were processed

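Gene expression was measured on 9 Affymetrix arrays. Deposited log2 values, 1 per probe set and array, were made by the authors with RMA, according to the submitters' processing notes without a version. RMA subtracts background, equalizes arrays and summarizes probes. Further settings are not given in the sources used here, and differences are compressed near the top of the scale. Values ran from 3.90 to 15.0, with array medians of 6.31 to 6.38, and the number of arrays limits the precision. Of 45101 probe sets, 64 controls and 10092 with no or several gene symbols were left out, and 0 value columns belonged to no sample.

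The probe set of highest mean was kept for each of 18193 genes, and genes with a mean at or above the 30th percentile of gene means were tested. limma 3.58.1 (R 4.3.3) fitted 3 group means to all arrays, with eBayes moderation along a mean-variance trend, two-sided tests, Benjamini-Hochberg adjustment over the 12735 genes and a call at an adjusted p below 0.05. The 4 contrasts were each hairpin minus scrambled, hairpin 2 minus hairpin 1 and the mean of both hairpins minus scrambled. The fit was tested on simulated data. All member probe sets were also tested in a fit of all 45037 probe sets. Members and lists were chosen with earlier results of these data known. Every member is named. Values of every array are given for members called with both hairpins, members that differed between hairpins and Slc2a4, Slc2a1, Hk2, Pfkl, Ldha, Pdk4, Pcx and Cs, and for some others after their values were seen. From each list of other pathway genes, up to 3 called in the mean of both hairpins with the smallest p are named. Alternatives changed the filter, the probe set rule, the scaling, the variance model, array weights, the groups fitted, a replicate block and each array left out.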

Additional observations from a re-analysis of the deposited data

Results flagged for a closer look

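For 5 members the direct comparison of the hairpins was called in limma, the differences against the scrambled control had opposite signs, and at least 1 of the 2 was itself called. For Aco1 the opposite sign is that of a hairpin 2 difference of 0.00. Pfkp also had opposite signs and a called hairpin comparison (log2 -0.21, adjusted p = 0.0488) but no call against the scrambled control. Pgk1 was higher with hairpin 2 than with hairpin 1 by 0.43 on the log2 scale, and Aco1 by 0.47. Pdhb had a log2 difference of -0.42, Dlat of -0.56 and Idh2 of -0.41 for hairpin 2 minus hairpin 1. The Aco1 value rests on low readings of 1 probe set on hairpin 1 repeats 2 and 3, and its call was lost in 7 of 9 fits without 1 array (adjusted p 0.0503 to 0.249). The calls of Pgk1, Pdhb, Dlat and Idh2 between the hairpins held in all 18 alternative settings. Ebf1 was also lower with hairpin 2 than with hairpin 1 (log2 -0.50), and its part in these differences was not tested.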

How the results depend on the processing

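Across 18 alternative settings, 4323 values of single genes were recomputed. Of these, 4046 kept their side of the threshold, 193 lost the call, 78 gained it and 6 were counted as changed in sign. Uncalled values could change sign without being counted so. Pdk1 with hairpin 1, at -0.55 in the main fit, ran from -1.02 to 0.07 over the settings. The 6, all with the mean of all probe sets of a gene, were Idh1 with hairpin 1 (-0.20) and in the mean of both hairpins (-0.023), Idh3a with hairpin 2 (0.030) and in the mean of both hairpins (0.095), and hairpin 2 minus hairpin 1 for Slc25a12 (0.038) and Epas1 (-0.19). The cause was not tested. Members higher with hairpin 2 numbered 8 to 11 over the settings and 8 to 10 when 1 array was left out; with hairpin 1 they numbered 14 to 23 and 13 to 19.

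Small counts moved more. Members lower with hairpin 1 numbered 1 with no filter, the mean of probe sets, quantile normalization, no trend or only the groups of the contrast, and 1 to 3 without 1 array, with 1 left without scrambled repeat 1 or 2, hairpin 1 repeat 2 or 3 or hairpin 2 repeat 1 or 3. Members lower with hairpin 2 numbered 0 with no trend and 1 to 3 without 1 array, with 1 left without scrambled repeat 2 or 3 or hairpin 2 repeat 1 or 3. In the mean of both hairpins, where 2 members were lower, the count was 0 with the mean of probe sets or no trend, 4 with quantile normalization, 6 with array weights, and 0 to 4 without 1 array (0 without scrambled repeat 3, 1 without scrambled repeat 2, 4 without hairpin 1 repeat 1). Array weights raised the genes called to 7460 with hairpin 1 (4199 without) and to 5990 between the hairpins (3702 without), and the members lower with hairpin 2 than hairpin 1 to 14.

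Whether repeat numbers pair the arrays could not be settled with 3 arrays per group. Deviations from group means correlated at -0.293 to 0.25 for arrays with the same number and -0.323 to 0.31 for others. For 5 of 9 arrays the highest correlation was with their own number. With the replicate block 4470 genes were called with hairpin 2, 4281 with hairpin 1 and 3761 between the hairpins, and members higher and lower numbered 9 and 3 with hairpin 2, 18 and 2 with hairpin 1, and 4 and 9 between the hairpins. Members near the floor of the array, Slc2a3 and Aldoc, were not tested.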
